A study of Mus musculus with 16 samples.

Results

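The Eif4g family encodes the scaffold proteins of translation initiation, and its 3 mouse genes, Eif4g1, Eif4g2 and Eif4g3, were followed through every library of a study of the coactivators SAGA and ATAC in mouse embryonic stem cells. The members were taken by gene symbol, 3 of 32826 genes in the deposited tables. The family was selected on the level of newly synthesized Eif4g3 RNA, which was low in cells with a degron on the ATAC subunit Yeats2, and its levels in the mutants were already known when the family was picked. All values of Eif4g3 in mutants are therefore given as a description, with no test, and so are all values of the family in AID-Yeats2.

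All libraries came from E14 cells kept in serum medium to which the inhibitors CHIR99021 and PD0325901 and leukaemia inhibitory factor were added, and all lines, WT included, were treated with auxin (IAA) for 24 h. In the 3 AID lines the named protein, Tada3, Yeats2 or Zzz3, bears an auxin-inducible degron, and Supt7l-/- cells are knockouts. Tada3 belongs to the histone acetyltransferase module shared by SAGA and ATAC, Yeats2 and Zzz3 to ATAC, and Supt7l to the core of SAGA. Each mutant is represented by 2 independent clones. Each WT group holds 1 library of the plain line and 1 of a line that overexpresses Tir1, the auxin receptor that degrons need, and the biotin ligase BirA. Sequencing ran in 3 projects. Project 1 held AID-Tada3, project 2 held AID-Yeats2 and Supt7l-/-, and project 3 held AID-Zzz3, each beside its own 2 WT libraries, so that a mutant is compared with WT of its own project. Newly synthesized RNA, labelled with 4-thiouridine (4sU) for 15 min, made up 14 libraries, and 2 further libraries of project 1 hold total RNA from both WT lines.

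An eIF4G protein bridges the cap-binding protein eIF4E, the RNA helicase eIF4A, the poly(A)-binding protein and eIF3, and so brings the small ribosomal subunit to an mRNA. The proteins made from Eif4g1 and Eif4g3 have this layout in common, and Eif4g1 is the form most studied. The protein made from Eif4g2, also called DAP5 or NAT1, lacks the part that binds eIF4E and serves translation that does not depend on eIF4E. In mice, Eif4g2 is needed for the differentiation of embryonic stem cells, and Eif4g3 for meiosis in spermatocytes.

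The members differ most in the length of their genes (mm10). Eif4g3 (ENSMUSG00000028760) spans 215.487 kb of the plus strand of chromosome 4 (137993022 to 138208508), with 11.063 kb of exon sequence over all transcripts. Eif4g1 (ENSMUSG00000045983) spans 24.572 kb of the plus strand of chromosome 16 (20668313 to 20692884), with 7.301 kb of exon sequence. It begins 435.74 kb beyond the end of Yeats2, the gene targeted in AID-Yeats2 cells. Eif4g2 (ENSMUSG00000005610) spans 15.281 kb of the minus strand of chromosome 7 (111067750 to 111083030), with 10.166 kb of exon sequence. No other gene of the deposited tables overlaps the span of Eif4g1 (0 genes), Eif4g2 (0 genes) or Eif4g3 (0 genes).

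SAGA and ATAC act at promoters. The promoters of Eif4g3 and Eif4g1 are shown because these genes with similar proteins had unlike levels in AID-Yeats2 and AID-Zzz3 cells. Any part of the promoter sequence in this was not tested. Each stretch is 300 bases from RefSeq (GRCm38.p6), with 250 bases before an annotated start and 50 from the start on, on the plus strand, at chr4:137993205-137993504 for Eif4g3 and chr16:20672477-20672776 for Eif4g1. Capitals mark every match, on either strand, to a TATA box (TATAAA), an E-box (CACGTG), a GC box (GGGCGG), an ETS core (CCGGAA), a YY1 core (GCCATNTT) or a CCAAT box (CCAAT), and no marked matches overlap.
Eif4g3: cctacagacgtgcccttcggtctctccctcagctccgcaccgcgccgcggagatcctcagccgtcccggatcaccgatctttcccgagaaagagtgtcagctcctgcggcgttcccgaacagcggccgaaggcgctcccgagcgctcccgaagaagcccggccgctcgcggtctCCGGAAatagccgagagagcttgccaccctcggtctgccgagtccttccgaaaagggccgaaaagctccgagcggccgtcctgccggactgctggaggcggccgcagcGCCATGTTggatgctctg
Eif4g1: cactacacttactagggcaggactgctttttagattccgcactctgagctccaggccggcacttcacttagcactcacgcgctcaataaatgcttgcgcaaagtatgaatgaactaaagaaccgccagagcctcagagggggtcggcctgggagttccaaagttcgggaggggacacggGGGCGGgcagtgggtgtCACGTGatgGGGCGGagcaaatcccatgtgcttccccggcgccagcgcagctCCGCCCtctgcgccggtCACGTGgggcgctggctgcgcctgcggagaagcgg
The table of promoters matched 2 of the 3 members, and Eif4g3 had 2 entries there, of which only the first is shown and described. Both stretches begin inside the gene spans given above, that of Eif4g1 farther from the first base of its gene. Both stretches were richer in G and C than the median promoter (52.7%), at 67.3% with 37 CpG dinucleotides for Eif4g3 and 62% with 23 for Eif4g1. The window of Eif4g3 held an ETS core beginning at position -76 from the start and a YY1 core at position 33, motifs found in 14.9% and 6.05% of 32851 promoters of this length. The window of Eif4g1 held neither, and had E-boxes at -54 and 16 (a motif in 7.15% of promoters) and GC boxes at -71, -45 and, on the minus strand, -2 (a motif in 35.7%). The letters of the TATA box (in 13.6% of promoters) and of the CCAAT box (in 37.4%) were found in neither window. These matches describe the letters only and do not show that a factor binds.

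The cells were checked against marker genes of their labelled type. Mouse gene counts summed to between 8268061 and 15994518 in 4sU libraries and between 4903998 and 6378707 in total RNA. The 5 embryonic stem cell markers measured added up to between 2356 and 2857 CPM in the 14 4sU libraries, and none was at 0 in any of them. Here CPM are counts scaled to the same number of reads in each library. Markers of other cell types were low in all 4sU libraries, and some differed between mutants and WT, not only where Eif4g3 was low. Male germ cell markers (5 measured) summed to 27.9 and 35.0 CPM in AID-Yeats2 clones, against 22.4 and 22.7 CPM in WT cells. They summed to 32.1 and 36.4 CPM in AID-Zzz3 clones, against 22.1 and 24.3 CPM in WT cells. The range over the 14 libraries was 18.4 to 41.7 CPM, and both ends were WT libraries of project 1. Primitive endoderm markers (5 measured) summed to 9.99 and 7.15 CPM in AID-Yeats2 clones and 8.64 and 6.98 CPM in Supt7l-/- clones, against 5.31 and 5.69 CPM in WT cells, and to 5.81 and 6.84 CPM in AID-Zzz3 clones, against 4.99 and 4.23 CPM in WT cells. Between 0 and 1 gene of each of these lists was at 0 in a library. The 1 neural marker measured, Pax6, stood at 8.71 CPM in AID-Zzz3 clone 1 and 3.00 CPM in clone 2. WT cells of that project had 2.62 and 1.75 CPM, and clone 1 is the lower clone for Eif4g3. In AID-Tada3 clones Pax6 stood at 3.36 and 3.13 CPM, against 1.32 and 2.44 CPM in WT cells. It had 1.54 and 0.817 CPM in AID-Yeats2 clones and 1.27 and 2.43 CPM in Supt7l-/- clones. WT cells of project 2 had 1.04 and 0.738 CPM of Pax6. Fibroblast markers summed to 11.3 CPM in AID-Yeats2 clone 1 and 1.12 CPM in clone 2, and to 7.11 and 7.48 CPM in WT cells of project 2, with 0.250 to 1.69 CPM in the other 10 4sU libraries. The lower of the AID-Yeats2 clones for Eif4g3 is clone 1, and the part of these markers in the results was not tested. RNA of the targeted genes was still present in every mutant library, at 109 and 188 CPM in AID-Yeats2 clones against 242 and 256 CPM in WT cells for Yeats2, and at 288 and 300 CPM in AID-Zzz3 clones against 430 and 448 CPM in WT cells for Zzz3. Tada3 had 12.2 and 10.5 CPM in AID-Tada3 clones, against 31.3 and 23.9 CPM in WT cells. For degron lines RNA does not report the protein. Supt7l had 8.87 and 14.1 CPM in Supt7l-/- clones, against 13.9 and 14.3 CPM in WT cells, so clone 2 was at the WT level, and RNA summed over the gene does not check the knockout label.

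Eif4g3 stood far below WT in both ATAC degron lines. Counts scaled by TMM, a scaling in which most genes are taken as unaltered, gave 22.1 and 29.7 CPM of newly synthesized Eif4g3 RNA in AID-Yeats2 clones 1 and 2, against 122 CPM in the plain and 147 CPM in the Tir1/BirA WT line. Eif4g3 had 19.4 and 29.7 CPM in AID-Zzz3 clones, against 140 and 131 CPM in WT cells. In both comparisons the 2 clones lay below both WT libraries, with no overlap, and clone 1 was the lower clone. As a share of the WT mean of its project, Eif4g3 was at 16.40% and 22.004% in AID-Yeats2 clones and at 14.33% and 21.96% in AID-Zzz3 clones. The reads behind these levels were 214 and 292 in AID-Yeats2 clones, against 1267 and 1376 in WT cells, and 162 and 389 in AID-Zzz3 clones, against 1638 and 1401 in WT cells.

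The log2 fold change of Eif4g3 was -2.38 ± 0.17 in AID-Yeats2 and -2.44 ± 0.18 in AID-Zzz3 (SE, n = 2 clones and 2 WT libraries each). Ordered from the largest fall, Eif4g3 was in place 5 of 14513 genes in AID-Yeats2 and in place 2 of 14529 genes in AID-Zzz3, where only Actn2 was lower. The 2 effects differed by 0.06 ± 0.29 when all 14 4sU libraries were fitted together. Between projects the WT libraries differ and within project 2 they are shared by both mutants.

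Eif4g3 in the other mutants stood close to WT. In Supt7l-/- clones Eif4g3 had 98.8 and 121 CPM, against 122 and 147 CPM in the same WT libraries, a log2 fold change of -0.29 ± 0.15. The clones lay below both WT libraries, but clone 2 and plain WT differed by less than the 2 clones did. In AID-Tada3 clones Eif4g3 had 181 and 160 CPM, against 141 and 170 CPM in WT cells, a log2 fold change of 0.13 ± 0.11. These groups overlapped. Set against Supt7l-/- within project 2, AID-Yeats2 had a log2 fold change of Eif4g3 of -2.09 ± 0.17.

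**Figure D1:**
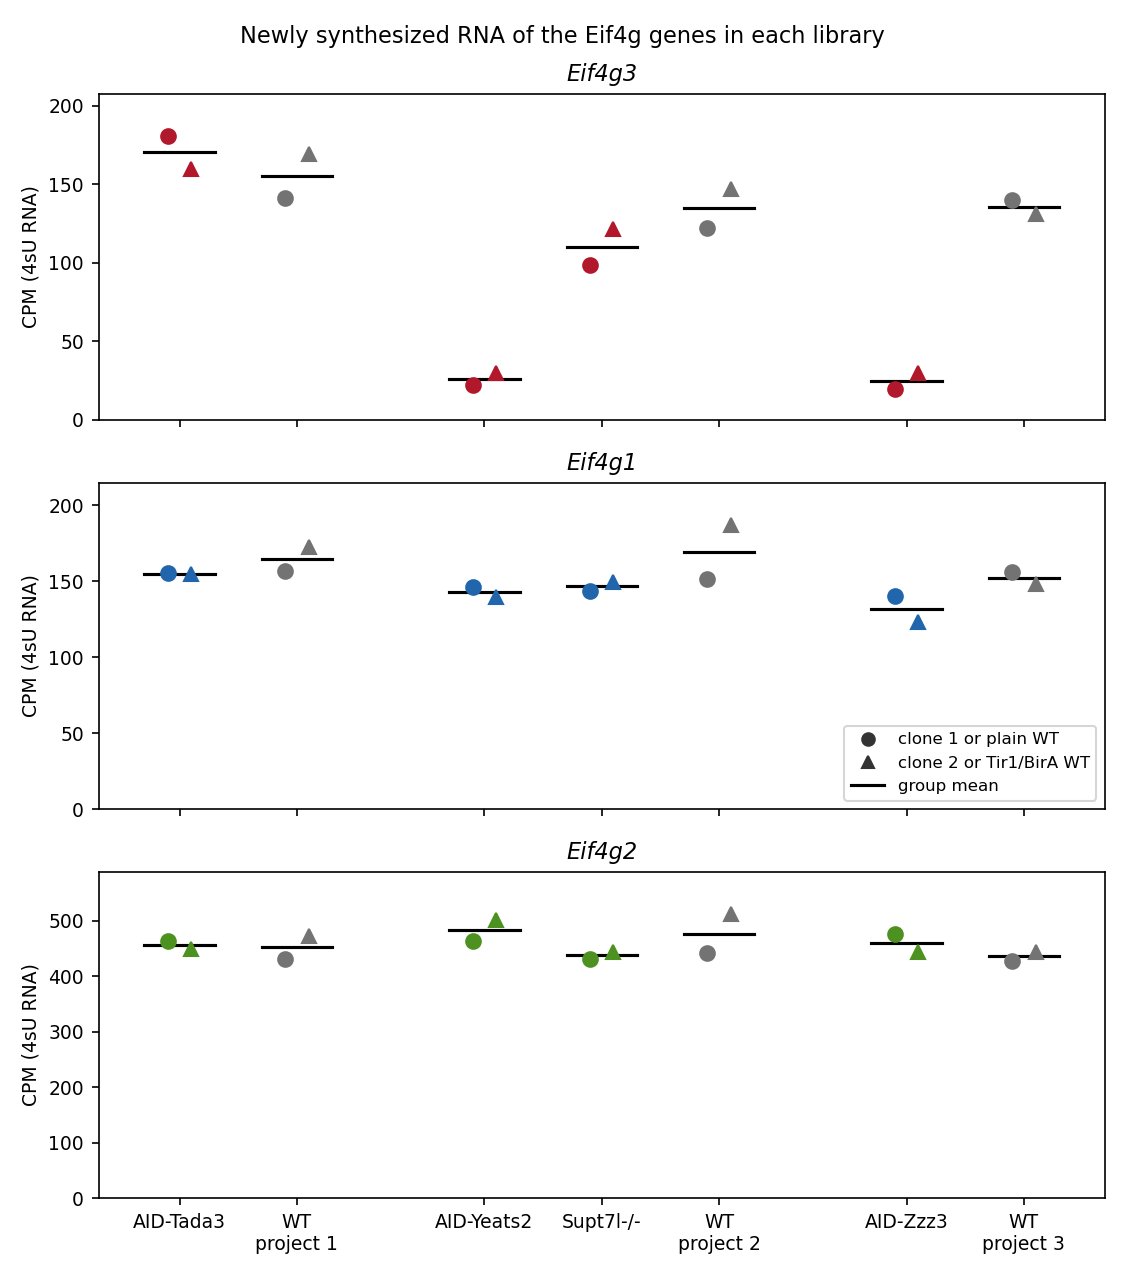
Newly synthesized RNA of Eif4g3, Eif4g1 and Eif4g2 (rows; y axis, CPM on a linear scale from 0) in each 4sU library, with the clones of each mutant in colour, WT libraries of the same project in grey and group means as lines. Eif4g3 lies between 19.4 and 29.7 CPM in the 4 AID-Yeats2 and AID-Zzz3 libraries and between 98.8 and 181 CPM in the other 10, while Eif4g1 and Eif4g2 vary far less.

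Over the 6 WT 4sU libraries, Eif4g3 ranged from 122 to 170 CPM with a median of 141 CPM, though each project was scaled on its own. The lowest WT library held more than 4 times the CPM of the highest ATAC degron library.

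Eif4g1, the closest relative in layout, was not called under TMM scaling of all libraries in any mutant where it was tested. Under spike-in scaling it was called in AID-Zzz3, as given below. In AID-Tada3 clones Eif4g1 had 155 and 155 CPM, against 157 and 172 CPM in WT cells, a change of -0.09 ± 0.09 on the log2 scale (adjusted p = 0.841, edgeR's quasi-likelihood test with Benjamini-Hochberg adjustment over all genes, here and below). In Supt7l-/- clones it had 144 and 150 CPM, against 152 and 187 CPM in WT cells (-0.21 ± 0.09, adjusted p = 0.243, edgeR). In AID-Zzz3 clones it had 141 and 123 CPM, against 156 and 148 CPM in WT cells (-0.21 ± 0.11, adjusted p = 0.469, edgeR). In AID-Yeats2 clones it had 146 and 140 CPM, against 152 and 187 CPM in WT cells, and its log2 fold change of -0.24 ± 0.09 is given without a test. In each of the 4 mutants both clones lay below both WT libraries, in AID-Tada3 only narrowly (155 against 157 CPM). AID-Yeats2 and Supt7l-/- share their WT libraries. The share of all genes that lie this way was not counted, so nothing is read from it. At an adjusted p under 0.05 the share of all genes called was 0.0331% in AID-Tada3, 7.24% in AID-Yeats2, 3.33% in Supt7l-/- and 0.984% in AID-Zzz3.

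Eif4g2 had the most counts of the members in every 4sU library and the least change. It had 464 and 450 CPM in AID-Tada3 clones, against 431 and 473 CPM in WT cells (0.02 ± 0.09, adjusted p = 0.978, edgeR). In Supt7l-/- clones it had 432 and 443 CPM, against 441 and 512 CPM in WT cells (-0.12 ± 0.07, adjusted p = 0.417, edgeR). It had 475 and 444 CPM in AID-Zzz3 clones, against 428 and 444 CPM in WT cells (0.08 ± 0.10, adjusted p = 0.792, edgeR). In AID-Yeats2 clones it had 463 and 502 CPM, against 441 and 512 CPM in WT cells, a log2 fold change of 0.02 ± 0.07 with no test. The groups overlapped in AID-Tada3, AID-Yeats2 and Supt7l-/-, and in AID-Zzz3 the lower clone exceeded the higher WT library by under 1 CPM.

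In Supt7l-/-, the values of both relatives depended on which WT library was used. Without the plain WT library, Eif4g1 was at -0.35 on the log2 scale and Eif4g2 at -0.23. Without the Tir1/BirA WT library they were at -0.046 and -0.0093. Each of these fits leaves 1 WT library, which is taken to have the spread of the other groups, so no call is read from them.

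**Figure D2:**
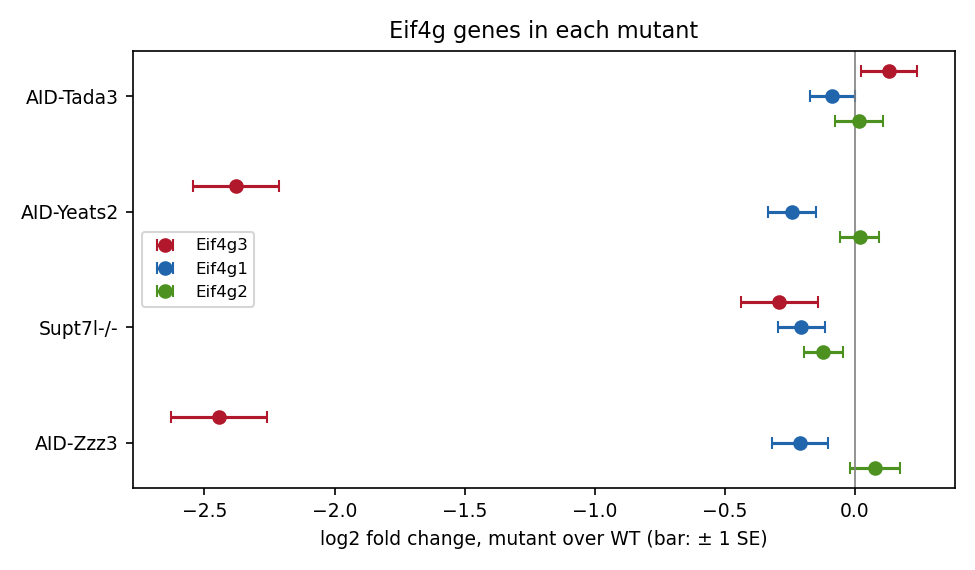
Log2 fold change (x axis) of Eif4g3, Eif4g1 and Eif4g2 in each mutant over WT of its project, with bars of 1 SE either way. Eif4g3 lies at -2.38 in AID-Yeats2 and -2.44 in AID-Zzz3, and every other value lies between -0.29 and 0.13.

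The effects were also compared between mutants in the fit of all 14 libraries. The effect on Eif4g1 in AID-Zzz3 minus that in AID-Tada3 was -0.13 (adjusted p = 0.749, edgeR), and for Eif4g2 it was 0.05 (adjusted p = 0.898, edgeR). AID-Zzz3 minus Supt7l-/- gave -0.01 for Eif4g1 (adjusted p = 0.979, edgeR) and 0.19 for Eif4g2 (adjusted p = 0.480, edgeR), and Supt7l-/- minus AID-Tada3 gave -0.12 (adjusted p = 0.798, edgeR) and -0.14 (adjusted p = 0.717, edgeR). For Eif4g3, AID-Zzz3 minus Supt7l-/- was -2.16 ± 0.28, with no test. The shares of genes called in these differences were 1.04%, 1.24% and 0.0194%.

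Ratios between members within a library do not depend on how libraries are scaled. Eif4g3 had 0.151 and 0.212 reads per read of Eif4g1 in AID-Yeats2 clones, against 0.808 and 0.787 in WT cells. In AID-Zzz3 clones this ratio was 0.138 and 0.241, against 0.894 and 0.882 in WT cells. It was 0.688 and 0.811 in Supt7l-/- clones, which overlap the WT values of project 2. In AID-Tada3 clones the ratio was 1.164 and 1.035, against 0.902 and 0.985 in WT cells. There the clones lay above both WT libraries, unlike in CPM. Per read of Eif4g2, Eif4g3 had 0.390 and 0.355 reads in AID-Tada3 clones, against 0.328 and 0.359 in WT cells, which overlap. In Supt7l-/- clones it had 0.229 and 0.274, against 0.278 and 0.287 in WT cells, below both. It had 0.0477 and 0.0591 in AID-Yeats2 clones and 0.0408 and 0.0669 in AID-Zzz3 clones. The reading for AID-Tada3 and Supt7l-/- thus depends on which relative is the divisor. The ratio of Eif4g1 to Eif4g2 stayed within 0.277 to 0.366 in the 14 4sU libraries. It was 0.316 and 0.279 in AID-Yeats2 clones, against 0.344 and 0.365 in WT cells, and 0.296 and 0.277 in AID-Zzz3 clones, against 0.366 and 0.334 in WT cells. It was 0.333 and 0.337 in Supt7l-/- clones, against the same WT values of project 2, and 0.335 and 0.344 in AID-Tada3 clones, against 0.363 and 0.364 in WT cells. In all 4 mutants both clones were thus below both WT libraries in this ratio, with AID-Yeats2 and Supt7l-/- set against the same WT libraries. How often ratios of other genes lie this way was not counted.

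To compare levels between genes, CPM were divided by the median transcript length in the deposited tables, 2.663 kb for Eif4g3, 0.85 kb for Eif4g1 and 0.5795 kb for Eif4g2. By this measure of level Eif4g2 was the highest, Eif4g1 the second and Eif4g3 the lowest in every 4sU group, and the share of Eif4g3 in the summed level of the family was 0.958% in AID-Yeats2 and 4.26% in Supt7l-/-, against 4.72% in WT cells of project 2. It was 0.971% in AID-Zzz3, against 5.18% in WT cells, and 6.18% in AID-Tada3, against 5.65% in WT cells. The order Eif4g2, Eif4g1, Eif4g3 was the same by exon sequence and by gene span. The size of the share was not: by exon sequence Eif4g3 made up 3.36% in AID-Yeats2 against 14.8% in WT cells, and by gene span 0.319% against 1.61%. These lengths were added after the data had been seen.

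In WT cells the members divided between newly synthesized and total RNA. Under TMM scaling Eif4g3 had 145 and 176 CPM in 4sU RNA of the plain and the Tir1/BirA line, against 41.6 and 33.9 CPM in total RNA of the same lines, higher by 2.09 ± 0.18 on the log2 scale (adjusted p = 6.69e-05, edgeR, n = 2 each). Eif4g1 had 161 and 179 CPM in 4sU RNA, against 947 and 1085 CPM in total RNA (-2.58 ± 0.16, adjusted p = 2.32e-05, edgeR). Eif4g2 had 442 and 492 CPM in 4sU RNA, against 1239 and 1368 CPM in total RNA (-1.48 ± 0.15, adjusted p = 1.37e-04, edgeR). Neither pair of groups overlapped for any member, and 63.4% of all genes were called. These tests did not use the pairing of libraries by line. Eif4g3 had 0.0440 and 0.0312 reads per read of Eif4g1 in total RNA of these lines.

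The TMM values are levels relative to other genes, and scaling by spike-in cells cannot turn them into amounts here. It put the median of all genes at 2.31, although newly synthesized RNA is a part of total RNA. On that scale Eif4g1 was at -0.32 (adjusted p = 0.0791, edgeR) and Eif4g2 at 0.78 (adjusted p = 0.00116, edgeR). Both were below that median, and no direction is read from these values. 4sU libraries were not depleted of ribosomal RNA, and whether reads in introns were counted is not given in the sources used here. Protein-coding genes with more intron sequence had more 4sU than total RNA: over 8 equal classes of gene span divided by exon length, the median log2 fold change ran from -1.79 in the lowest class to 1.36 in the highest. Eif4g3, with a ratio of 19.5, is in class 7, whose median was 0.94, and 94.6% of that class lay below it. Eif4g1, with a ratio of 3.37, is in class 3, with a median of -0.73 and 6.65% of the class below it. Eif4g2, with a ratio of 1.503, is in class 1, with a median of -1.79 and 57.9% below it. The part of intron reads in these differences was not tested.

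Overexpression of Tir1 and BirA in WT cells was examined with a block for project over the 6 WT libraries of 4sU RNA. Eif4g3 differed by 0.14 ± 0.09 on the log2 scale between the Tir1/BirA and the plain lines (adjusted p = 0.523, edgeR), Eif4g1 by 0.12 ± 0.08 (adjusted p = 0.589, edgeR) and Eif4g2 by 0.13 ± 0.06 (adjusted p = 0.390, edgeR), with 1.23% of genes called. None of the members passed the threshold. Which WT line is the closer match for each mutant clone is not given in the labels used here.

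The authors' fold changes differ in size from those above. In the authors' deposited table Eif4g3 had a log2 fold change of -2.02 in AID-Yeats2, -0.48 in Supt7l-/-, -1.37 in AID-Zzz3 and -0.12 in AID-Tada3. The authors' values for AID-Yeats2 and AID-Zzz3 are thus nearer to 0 than those from the raw counts, and those for Supt7l-/- and AID-Tada3 are lower. How the authors computed fold changes is not given in the sources used here. In the authors' deposited table Eif4g1 had -0.52 in AID-Zzz3 with an adjusted p of 0.00636. Under spike-in scaling of the raw counts Eif4g1 was likewise called there (-0.58, adjusted p = 0.0163, edgeR). That scaling put the median of all genes at -0.16 in AID-Tada3, -0.50 in AID-Yeats2, -0.36 in Supt7l-/- and -0.36 in AID-Zzz3. Eif4g2 turned to -0.14, -0.47 and -0.29 in AID-Tada3, AID-Yeats2 and AID-Zzz3. Spike-in genes numbered 17737 in project 1 and 7259 in projects 2 and 3, so AID-Tada3 was scaled on an unlike set.

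Partners of eIF4G were counted together with regulators, other initiation factors and genes with related domains, in 8 lists of 55 genes. Of these, 53 were tested in each mutant, and not all of them encode partners of eIF4G. In AID-Yeats2, 5 fell and 1 rose, where 3.32% of all genes fell and 3.92% rose, and the median log2 fold change of the lists was -0.09, beside -0.00 for all genes. Eif3d, a subunit of eIF3 that in human cells can itself bind caps, fell by 1.03 ± 0.10 on the log2 scale in AID-Yeats2 (adjusted p = 4.07e-05, edgeR), with 27.7 and 28.4 CPM in the clones, against 57.5 and 57.0 CPM in WT cells. The remaining falls were smaller: Ncbp1, the large subunit of the nuclear cap-binding complex, fell by 0.41, Pabpc4, a cytoplasmic poly(A)-binding protein, by 0.41, the eIF3 scaffold subunit Eif3b by 0.30, and Eif2s3x, the gamma subunit of eIF2, by 0.35, with adjusted p from 0.00946 to 0.0438 (edgeR). Eif2s3x was named after its value was seen. Upf2, a factor of nonsense-mediated decay with MIF4G domains like those of eIF4G, rose by 0.32 (adjusted p = 0.0227, edgeR), but under spike-in scaling it turned to -0.18. Without AID-Yeats2 clone 1 or without clone 2, only 1 of these 6 genes kept its call, Eif3d.

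In Supt7l-/- no gene of the lists fell and 1 rose, where 2.02% of all genes fell and 1.32% rose. At an unadjusted p under 0.05 in edgeR 4 were lower, and DESeq2 called 0 lower. The gene that rose was Upf2, which rose by 0.42 on the log2 scale (adjusted p = 0.00782, edgeR), or 0.05 (adjusted p = 0.874, edgeR) under spike-in scaling, and 0.32 (adjusted p = 0.217, edgeR) without Supt7l-/- clone 1. In AID-Zzz3 none of the 53 genes was called at an adjusted p under 0.05 in edgeR, where 0.984% of all genes were, and the median of the lists was -0.10, beside 0.00 for all genes. At an unadjusted p under 0.05 there were 12, of which 11 were lower, and DESeq2 called 1. There Eif3d was again the lowest of the lists, at 27.5 and 28.6 CPM in AID-Zzz3 clones against 53.0 and 40.6 CPM in WT cells (-0.74, adjusted p = 0.0818, edgeR). Other settings called Eif3d in AID-Zzz3, with adjusted p of 0.0130 under spike-in scaling, 3.84e-05 with no filter and 0.00184 in the fit of 14 libraries (edgeR), and 0.0209 in DESeq2. With the size factors of DESeq2 in edgeR it was not called (-0.74, adjusted p = 0.0755, edgeR). Leaving out each library in turn gave Eif3d log2 fold changes between -0.92 and -0.54 in AID-Zzz3, and no call is read from those fits. In AID-Tada3 none of the 53 was called in edgeR, where 0.0331% of all genes were, and the median was 0.01. There 1 gene had an unadjusted p under 0.05, and 0 were called by DESeq2.

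The genes for the direct partners in the cap-binding complex were not called in any mutant. Eif4e, which encodes the cap-binding subunit, had log2 fold changes of 0.17 in AID-Tada3, -0.02 in AID-Yeats2, -0.02 in Supt7l-/- and -0.06 in AID-Zzz3. Eif4a1 and Eif4a2, which encode the helicase, had values between -0.27 and 0.04 over the 4 mutants.

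**Figure D3:**
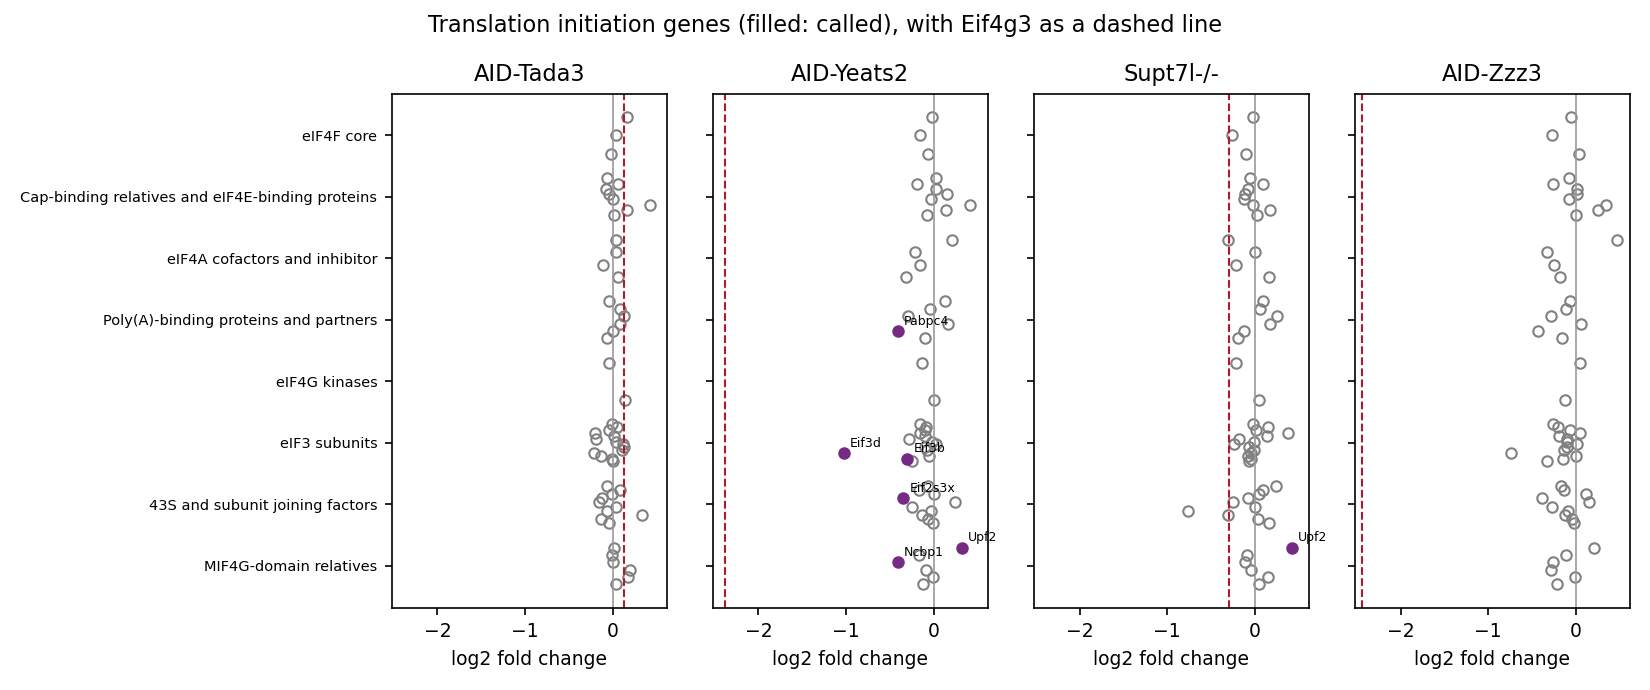
Log2 fold changes (x axis) of translation initiation genes in 8 lists (rows) in each mutant over WT, filled where the adjusted p was under 0.05 in edgeR, with Eif4g3 as a dashed line. In AID-Yeats2 and AID-Zzz3 the dashed line lies left of every gene of the lists.

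Genes next to Eif4g3 were examined to see how far along the chromosome a low level reached. Of 21 genes tested within 1 Mb of Eif4g3, none was called in AID-Tada3 or AID-Zzz3 and 1 each in AID-Yeats2 and Supt7l-/-, both named after their values were seen. Over all genes the shares called were 7.24% in AID-Yeats2 and 3.33% in Supt7l-/-, and 1 gene of 21 is near both. At an unadjusted p under 0.05 in edgeR there were 2 in AID-Tada3 and 5 in AID-Zzz3, and DESeq2 called 0 in AID-Tada3 and 1, higher, in AID-Zzz3. The called genes in edgeR were Cdc42, a small GTPase of the cytoskeleton, which fell by 0.32 in AID-Yeats2 (adjusted p = 0.0165, edgeR), and Camk2n1, an inhibitor of the kinase CaMKII, which fell by 2.00 in Supt7l-/- (adjusted p = 0.0196, edgeR). Without either clone of its mutant each of these calls was lost. All values of the 21 neighbours lay between -0.74 and 0.49 in AID-Yeats2 and between -0.57 and 0.72 in AID-Zzz3, well above those of Eif4g3.

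The nearest gene on each side had no fall of the size seen for Eif4g3. Hp1bp3, which encodes a protein related to linker histones, begins 7.788 kb after the end of Eif4g3, with log2 fold changes of -0.25 in AID-Yeats2 (adjusted p = 0.109, edgeR) and -0.26 in AID-Zzz3 (adjusted p = 0.376, edgeR). Under spike-in scaling these were -0.75 (adjusted p = 0.0180, edgeR) and -0.62 (adjusted p = 0.0150, edgeR). Ece1, which encodes an endothelin-converting enzyme, ends 27.793 kb before Eif4g3, with 0.02 in AID-Yeats2 (adjusted p = 0.959, edgeR) and 0.72 in AID-Zzz3 (adjusted p = 0.0518, edgeR). With Rap1gap, Alpl, Kif17 and Ddost, the next protein-coding genes out, the 6 nearest ranged from -0.25 to 0.49 in AID-Yeats2 and from -0.26 to 0.72 in AID-Zzz3.

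**Figure D4:**
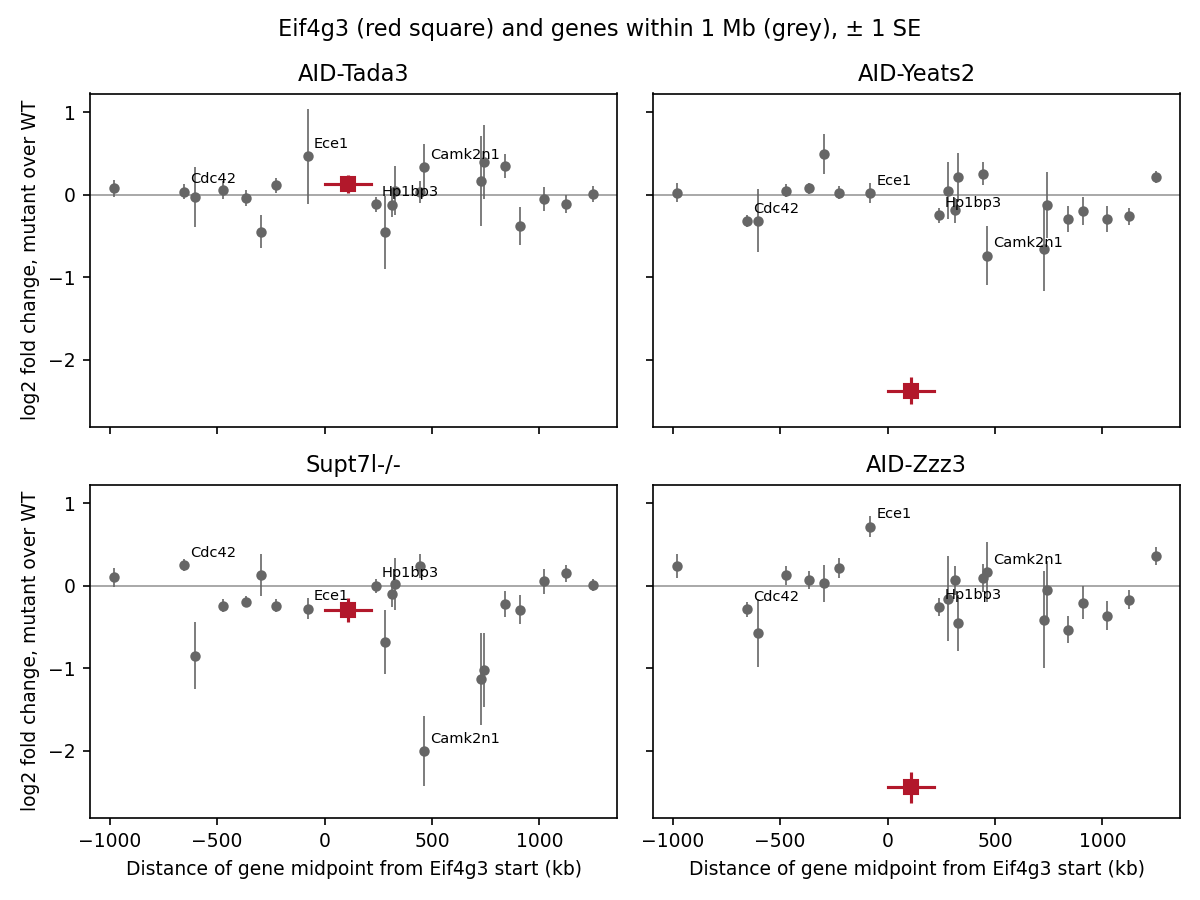
Log2 fold change with 1 SE (y axis) of 21 genes within 1 Mb of Eif4g3, by the distance of their midpoint from its start (x axis, kb), in each mutant over WT, with Eif4g3 as a red square whose horizontal line is its span. In AID-Yeats2 and AID-Zzz3, Eif4g3 at -2.38 and -2.44 stands below all neighbours.

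Genes whose levels followed those of Eif4g3 most closely were sought among 11987 protein-coding genes. Likeness was the root mean square difference in log2(CPM + 0.5), each library taken relative to the WT mean of its project, over the 14 4sU libraries. The nearest was Eef1g, a subunit of translation elongation factor 1, with a difference of 0.548, followed by the ribosomal protein gene Rpl9 (0.577), Actn2, a gene for the sarcomere protein alpha-actinin (0.617), and the ribosomal protein genes Rpl29 (0.628) and Rpl37a (0.660). Eef1g had 73.0 and 94.6 CPM in AID-Yeats2 clones, against 200 and 272 CPM in WT cells, and 69.5 and 103 CPM in AID-Zzz3 clones, against 217 and 240 CPM in WT cells. All 5 were low in both ATAC degron lines, with log2 fold changes between -2.82 and -1.37 in AID-Yeats2 and between -2.56 and -1.15 in AID-Zzz3. Chosen for these values, they are described and not tested, and the 4 other than Actn2 stood less far below WT than Eif4g3 did. Of the paralogues, Eif4g1 was in place 1437 of the 11987 genes with a difference of 1.19, and Eif4g2 in place 6642 with 1.33. The measure is led by the AID-Yeats2 and AID-Zzz3 libraries, where Eif4g3 was far below WT, so a gene slightly low there moves up. Eif4g1 was at -0.24 and -0.21 in these mutants, and its place does not show that it followed Eif4g3.

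**Figure D5:**
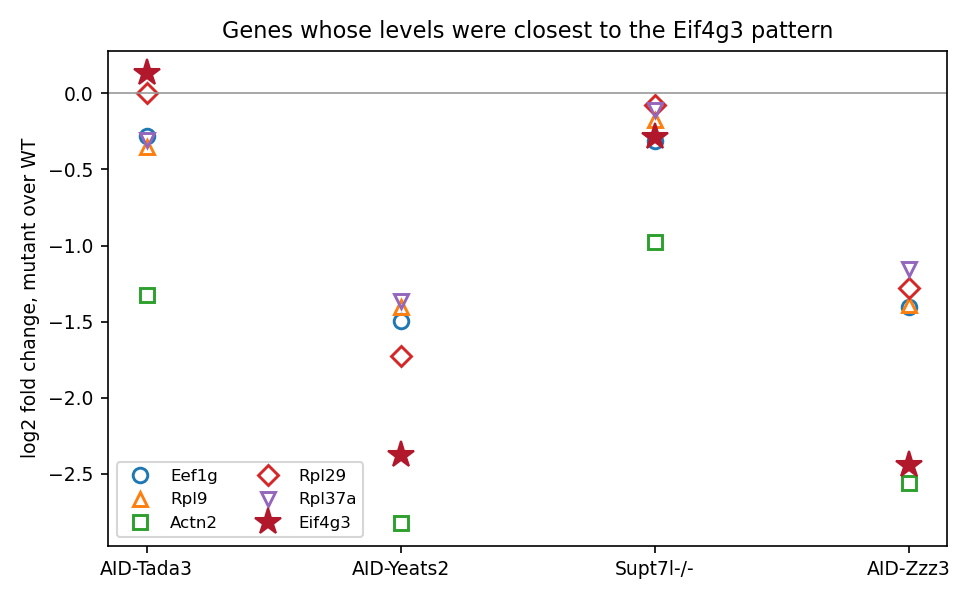
Log2 fold change in each mutant over WT (y axis) of Eif4g3 (star) and of the 5 genes whose levels differed least from it. In AID-Yeats2 and AID-Zzz3 only Actn2 lies below Eif4g3, at -2.82 and -2.56, and in AID-Tada3 Actn2 is at -1.32, where Eif4g3 is at 0.13.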

How the data were processed

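Newly synthesized (4sU) and total RNA of 16 libraries was analysed from deposited tables of 3 sequencing projects. Raw read counts for mouse and for spike-in genes were deposited by the authors. They also deposited a normalized signal, which scales the counts of each library by 1 factor, with log2 fold changes and p-values of each mutant against WT. Per the file headers, the tables further hold other annotation such as transcript lengths. The submitters' processing notes list STAR 2.5.3a, HTSeq 0.6.1p1, DESeq2 1.16.1 and mm10. The feature type counted and the strand setting are not given in the sources used here. Gene spans were the same in GENCODE M21 for 96.4% of genes.

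Genes that passed edgeR's filterByExpr (minimum count 10) were scaled by TMM on mouse genes and tested with the quasi-likelihood test of edgeR 4.0.16 (robust; R 4.3.3, limma 3.58.1), with Benjamini-Hochberg adjustment over all genes at 0.05. SE is the absolute log2 fold change divided by the square root of F. Levels are CPM of the TMM effective library size within a project, while marker sums use the plain library total. Project 2 mutants were fitted with all 6 4sU libraries of their project and the other mutants with 4. The fits were tested on simulated data. WT 4sU and total RNA come from the same 2 lines, and their same-numbered deviations correlated across genes (r = 0.489), so the line pairs these samples. The main fit of 4sU against total RNA had no block for line, and a fit with that block was an alternative. Alternatives were spike-in scaling, DESeq2 1.42.0 and its size factors, no filter, a fit of all 14 4sU libraries, replicate or project blocks, and omission of each library. Figures and tables used matplotlib 3.10.9, numpy 2.4.6 and pandas 2.3.3 (Python 3.11.15).

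Members and lists were chosen with earlier results of these data known. Tests of Eif4g3 in AID-Tada3 and AID-Zzz3 were planned but are not printed, because its choice cannot be shown to be independent of them. Named genes are the members, Eif4e, Eif4a1 and Eif4a2, up to 5 called list genes per mutant with the smallest adjusted p, the 3 nearest tested protein-coding genes on each side of Eif4g3 and the 5 genes most like it (mean of at least 1 CPM in each project). A few marker and list genes were not analysed here.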

Additional observations from a re-analysis of the deposited data

Results flagged for a closer look

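The log2 fold change of Eif4g3 was above 0 only in AID-Tada3, at 0.13 ± 0.11, where clones and WT libraries overlapped in CPM. In AID-Tada3 both clones stood above the WT mean of their project, and in AID-Yeats2, AID-Zzz3 and Supt7l-/- both clones stood below theirs. The difference of the log2 fold changes was -2.51 ± 0.28 for AID-Yeats2 minus AID-Tada3, -2.58 ± 0.28 for AID-Zzz3 minus AID-Tada3 and -0.42 ± 0.26 for Supt7l-/- minus AID-Tada3. None of these differences was tested. Under spike-in scaling the log2 fold change of Eif4g3 in AID-Tada3 was -0.02, on the same side as in the other mutants. In the authors' deposited table it was -0.12, and without the plain WT library it was 0.0044. A direction in AID-Tada3 is therefore not established.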

How the results depend on the processing

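Eif4g3 stayed far below WT in AID-Yeats2 and AID-Zzz3 under every alternative run. Leaving out each library in turn gave log2 fold changes of Eif4g3 between -2.81 and -2.19 in AID-Zzz3, the lowest without clone 2. Spike-in scaling gave Eif4g3 -2.86 in AID-Yeats2, -0.63 in Supt7l-/- and -2.81 in AID-Zzz3. In AID-Tada3 it gave -0.02, so that the small positive value there depends on the scaling. It gave Eif4g1 -0.74 in AID-Yeats2 and -0.58 in AID-Zzz3 (adjusted p = 0.0163, edgeR). It reversed Eif4g2 to -0.14 in AID-Tada3, -0.47 in AID-Yeats2 and -0.29 in AID-Zzz3, Upf2 to -0.18 and Ece1 to -0.48 in AID-Yeats2. For AID-Yeats2 over Supt7l-/- it gave -0.18 for Eif4g1 and 0.0077 for Eif4g2. For WT 4sU over total RNA it gave -0.32 for Eif4g1 and 0.78 for Eif4g2, on a scale that cannot compare amounts between newly synthesized and total RNA. Among differences of effects it gave Eif4g2 -0.15 in AID-Zzz3 minus AID-Tada3, Eif4g3 -0.61 in Supt7l-/- minus AID-Tada3, and -0.50, -0.33 and -2.84 for Eif4g1, Eif4g2 and Eif4g3 in AID-Yeats2 minus AID-Tada3. The differences from AID-Tada3 join effects scaled on unlike sets of spike-in genes. In AID-Yeats2 minus AID-Zzz3 spike-in scaling gave -0.16 for Eif4g1 and -0.19 for Eif4g2. The authors' normalized signal gave log2 ratios of mean levels for Eif4g1 of -0.24 in AID-Tada3, -0.74 in AID-Yeats2, -0.57 in Supt7l-/- and -0.57 in AID-Zzz3. For Eif4g2 these were -0.14, -0.47, -0.48 and -0.28, and for Eif4g3 -2.86 in AID-Yeats2, -0.64 in Supt7l-/- and -2.83 in AID-Zzz3. The ratios by normalized signal nearly repeated the values by spike-in scaling, so they are not a separate check. Why both lie below the TMM values was not tested.

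The share of Eif4g3 in the family level by exon sequence was 18.9% in AID-Tada3 against 17.3% in WT cells, 3.36% in AID-Yeats2 and 13.6% in Supt7l-/- against 14.8% in WT cells, and 3.42% in AID-Zzz3 against 16.1% in WT cells. By gene span it was 2.14% against 1.95%, 0.319% and 1.45% against 1.61%, and 0.323% against 1.78% in the same groups.

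The number of genes called moved more than the members did. In AID-Tada3 it was 5, and 245 under spike-in scaling, 376 with no filter, 32 in DESeq2 and 11 in the joint fit. In AID-Yeats2 it was 1051, and 3470, 1585, 597 and 567 under the same settings. In AID-Zzz3 it was 143, and 3713, 757, 261 and 583. In Supt7l-/- it was 484, with 1245 without a filter and 97 in the joint fit. For AID-Yeats2 over Supt7l-/- it was 2361, with 723 under spike-in scaling and 1397 in DESeq2. For Tir1/BirA over plain WT it was 180, with 649 under spike-in scaling, 860 with no filter and 12 without the project block. List genes called in AID-Yeats2 numbered 6, and 24 under spike-in scaling, 11 with no filter and 3 in the joint fit. In AID-Zzz3 none was called, against 32, 3 and 4 under these settings and 1 in DESeq2. In AID-Tada3 and AID-Zzz3 the numbers of genes with an unadjusted p under 0.05 were 1208 and 1869. In fits that leave out a library, genes called ranged from 0 to 2040 in AID-Tada3, 220 to 2129 in AID-Yeats2, 40 to 2629 in Supt7l-/-, 14 to 464 in AID-Zzz3, 679 to 1060 for AID-Yeats2 over Supt7l-/- and 2 to 1164 for Tir1/BirA.

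In the same fits, Eif4g1 ranged from -0.39 to -0.082 in AID-Yeats2 and from -0.35 to -0.046 in Supt7l-/-, and Eif4g2 from -0.051 to 0.095 in AID-Tada3 and from -0.23 to -0.0093 in Supt7l-/-. Ece1 in AID-Yeats2 ranged from -0.084 to 0.13. The difference of Eif4g1 effects ranged from -0.31 to -0.0029 for AID-Yeats2 minus AID-Tada3, -0.17 to 0.14 for AID-Yeats2 minus AID-Zzz3, -0.18 to 0.13 for AID-Zzz3 minus Supt7l-/- and -0.26 to 0.036 for Supt7l-/- minus AID-Tada3. That of Eif4g2 ranged from -0.11 to 0.11, from -0.16 to 0.061 and, for AID-Zzz3 minus AID-Tada3, from -0.021 to 0.12. For Eif4g3 it ranged from -2.75 to -2.32 for AID-Yeats2 minus AID-Tada3, -0.19 to 0.43 for AID-Yeats2 minus AID-Zzz3, -2.95 to -2.33 for AID-Zzz3 minus AID-Tada3 and -2.53 to -1.91 for AID-Zzz3 minus Supt7l-/-.

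Clone numbers of AID-Yeats2 and Supt7l-/- are only labels (correlation of same-numbered deviations 0.0379), and a replicate block on them moved the genes called to 4495. With the WT line as a replicate block, Eif4g3 was at 2.09 in 4sU over total RNA, and no call of a member changed. With 2 libraries a group the spread rests on few degrees of freedom, and counting error is largest for the 162 to 389 reads of Eif4g3 in ATAC degron lines.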
